A study of Mus musculus with 12 samples.

Results

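Lysophosphatidic acid (LPA) and sphingosine 1-phosphate (S1P) are lipid messengers that cells sense through families of G protein-coupled receptors. The transcripts followed here are those of 8 genes of these pathways, chosen by name: *Enpp2*, *Lpar1*, *Lpar5*, *Lpar6*, *Sphk1*, *Sgpl1*, *S1pr1* and *S1pr2*. Every probe whose transcript accession belongs to 1 of these genes in RefSeq was taken. This gave 9 probes, a pair for *Sphk1* and a single one for each other gene, out of 39429 on the array. All 9 passed the filter on dim probes (well above background on at least 4 of 12 arrays), so that all 8 genes were among the 19801 tested.

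The cells were primary microglia, the resident macrophages of the brain, shaken off mixed glial cultures that had been prepared from neonatal C57BL/6 mice. The study compared 3 treatments after 16 h, with 4 arrays in each: untreated, meaning T cell medium (IMDM) alone, supernatant of a Th1 culture, and supernatant of a Th17 culture. The arrays came from independent experiments numbered 12, 13, 14 and 16, each with 1 array per treatment. The supernatants hold the mixture of products that T cells release, not a purified factor, and the cultures of each experiment were bulk material, in which fewer cells of a type and less RNA per cell cannot be told apart. Values are array signals after quantile normalisation, scaled so that the 75th percentile of an array is 1500 and set to 15 where lower. They allow a comparison of arrays for a given probe, and not of probes with each other.

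LPA is made outside the cell by autotaxin, the product of *Enpp2*, a secreted enzyme that removes the head group of lysophosphatidylcholine. It then acts on receptors that include the products of *Lpar1*, *Lpar5* and *Lpar6*. S1P is made inside the cell, where sphingosine kinase 1 (*Sphk1*) phosphorylates sphingosine, and it is irreversibly broken down by S1P lyase (*Sgpl1*). Exported S1P acts on receptors such as those encoded by *S1pr1*, which signals through inhibitory G proteins and guides lymphocytes out of lymphoid organs, and *S1pr2*, which signals through further families of G proteins.

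After Th1 supernatant, *Enpp2* and *Lpar1* were much higher than in untreated microglia, and *S1pr1* and *Lpar6* were lower. Calls required more than a 2-fold change and an adjusted p of limma under 0.01, with Benjamini-Hochberg adjustment over all 19801 genes. By this rule 2 of the 8 genes rose and 2 fell, in a comparison in which 7.49% of all genes rose and 7.88% fell. Of those that rose, *Lpar1* had passed the filter on dim probes through the Th1 arrays alone. Against Th17 supernatant the same 2 genes rose and the same 2 fell, where 6.89% and 7.91% of all genes did. None of the 8 was called after Th17 supernatant against untreated cells. In that comparison 0% of all genes rose and 0% fell, and with experiment as a block 0 were called. An unadjusted p of limma under 0.05 was found for 325 of the 19801 genes, less than the share of 0.05 that no effect would give. The median log2 difference of the 8 genes for Th1 against untreated was -0.345, against -0.0577 over all genes. It lies between the values of *S1pr2* (-0.31) and *Sgpl1* (-0.38), which were not called. Without quantile normalisation these 2 values were -0.11 and -0.12, so the median depends on the normalisation. The comparisons with untreated cells share the untreated arrays, and both comparisons of Th1 share the Th1 arrays.

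**Figure D1:**
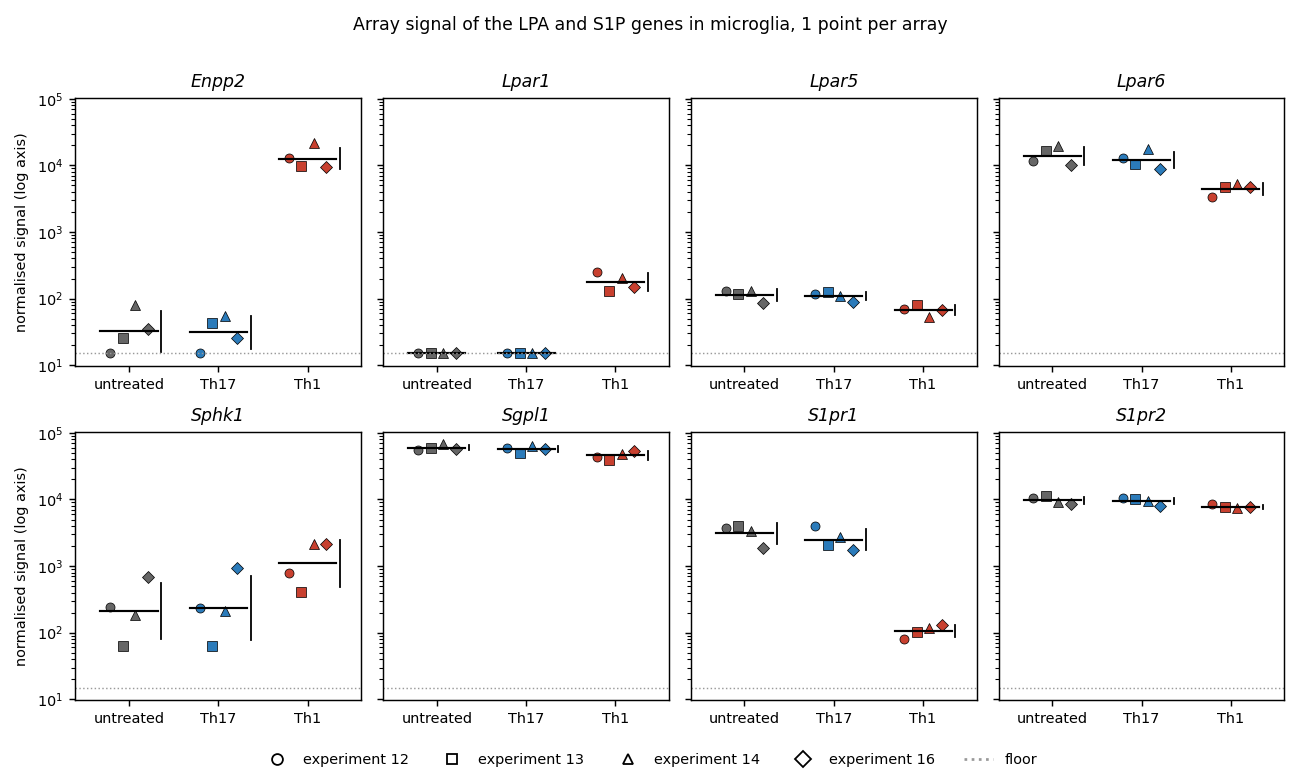
Normalised signal (log axis) of the 8 genes on each of the 12 arrays, by treatment. Each point is 1 array and its shape gives the experiment, horizontal lines are the means of log2 signal, vertical lines span 1 SD to each side (n = 4), and the dotted line is the floor of 15. The Th1 arrays lie above all others for *Enpp2* and *Lpar1*. They lie below all others for *S1pr1*, *Lpar6* and *Lpar5*, of which *Lpar5* was not called. The untreated and Th17 arrays overlap for every gene.

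*Enpp2*, which encodes autotaxin, showed the largest difference of the 8 genes. Its signal in untreated microglia was 15 (at the floor), 25.5, 81.1 and 35.5 in experiments 12, 13, 14 and 16. After Th1 supernatant it was 12740.1, 9829, 21329 and 9517 in the same order. After Th17 supernatant it was 15 (not above background), 43.6, 54.3 and 26.0. Each Th1 array thus stood more than 100 times above each other array, and the untreated and Th17 values overlapped. The log2 difference of Th1 and untreated cells was 8.61 ± 0.52 (SE; 95% interval 7.47 to 9.75; limma, adjusted p = 2.98e-07; n = 4 arrays per group). This was the rise of rank 22 among the 19801 genes. Within experiments the fold was 849, 385, 263 and 268, and within slides 1, 2 and 3 of the arrays the log2 difference was 9.35, 7.48 and 8.07. Against Th17 supernatant the log2 difference was 8.67 ± 0.52 (adjusted p = 3.36e-07). Because the lower groups lie near the floor, the fold depends on how background is treated. The log2 difference was 6.04 when the background was corrected by normexp, a method that keeps dim signals above 0, and *Enpp2* was called in that setting too.

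The autotaxin transcript is also known from choroid plexus and from oligodendrocytes. Of 8 choroid plexus and meningeal markers, 1 to 3 were above background on each array, and *Ttr*, *Kl* and *Lum* were above it on none. The summed signal of this list was 160 to 187 on the Th1 arrays, 208 to 393 on the untreated arrays and 146 to 271 on the Th17 arrays. The Th1 sums lay under the untreated sums and within the range of the Th17 sums. On every array, however, most of the 8 markers were not above background, and *Folr1* alone was above it on all 12. These sums therefore cannot show how much of such tissue was present. Of 11 oligodendrocyte lineage markers, 9 to 10 were above background on untreated arrays and 8 to 9 on Th1 arrays, and *Pdgfra* was above it on none. The summed signal of these markers was 16400 to 32815 on untreated, 14517 to 21110.3 on Th1 and 15445 to 20728 on Th17 arrays. Their members moved in both directions between untreated and Th1 cells. *Mag* and *Cnp* rose by 2.06 ± 0.16 and 1.67 ± 0.20 on the log2 scale, and *Mbp* and *Cspg4* fell by 1.60 ± 0.29 and 4.24 ± 0.24. The part of such cells in the *Enpp2* result was not tested.

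*Lpar1*, an LPA receptor that couples to several families of G proteins, was detected after Th1 supernatant only. Its signal there was 250, 128, 205 and 147 in experiments 12, 13, 14 and 16. On all 8 untreated and Th17 arrays it was not above background and lay at the floor of 15. There is therefore only a bound on its level in these groups. The limit taken was the lowest signal well above background on each array. By it *Lpar1* was at least 10.1-fold higher in Th1 than in untreated cells (limma, adjusted p = 6.04e-08). It was at least 8.77-fold higher than after Th17 supernatant (adjusted p = 6.82e-08). These bounds hold for that limit only, and some settings given next yield less. The gene passed the filter through the Th1 arrays alone. All values of the other groups were set by the floor, so the p-values do not measure spread within those groups. The fitted log2 difference depended on the treatment of dim signals. It was 3.56 with the floor of 15, 4.93 with no floor, 1.82 with a floor of 50 and 1.08 with normexp, and the gene was called in each of these settings. *Lpar1* is known from oligodendrocytes and astrocytes as well. Of 10 astrocyte markers, 6 to 8 were above background on Th1 arrays and 4 to 7 on untreated arrays, and *Gja1* and *Gjb6* were above it on none. Their summed signal was 4230.1 to 5825 on Th1, 4991 to 12061 on untreated and 4158 to 11941 on Th17 arrays. Their part in the result was not tested. *Lpar1* and *S1pr1* are among the genes that the study lists from these same arrays under G protein pathways, and *Lpar6* among those it lists under others, so their direction is not independent evidence.

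Another LPA receptor, *Lpar6*, was lower after Th1 supernatant. It encodes a receptor that is related to the P2Y nucleotide receptors. Its signal was 11743, 16567, 19322 and 10006 in the untreated arrays of experiments 12, 13, 14 and 16. After Th1 supernatant it was 3320.3, 4759, 5199 and 4734. After Th17 supernatant it was 12806, 10551, 17381 and 8874. The Th1 values all lay under the lowest of the other arrays. *Lpar6* fell by 1.65 ± 0.25 on the log2 scale (95% interval -2.20 to -1.10, adjusted p = 0.000298), which is 3.14-fold, and it was lower in 4 of 4 experiments. Within slides 1, 2 and 3 the log2 difference was -2.07, -1.96 and -1.08. Against Th17 supernatant it was -1.44 ± 0.25 (adjusted p = 0.000824). *Lpar5*, which belongs to the same branch of receptors, had a signal of 84.8 to 130 in untreated, 52.1 to 80.9 in Th1 and 90.0 to 126 in Th17 arrays. The Th1 values did not overlap with the others. Its log2 difference was -0.76 ± 0.18 against untreated cells (adjusted p = 0.00457) and -0.71 ± 0.18 against Th17 supernatant (adjusted p = 0.00704). These differences are 1.70-fold and 1.64-fold and so *Lpar5* was not called. With normexp the adjusted p was 0.0109 and 0.0242.

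On the side of S1P, the receptor *S1pr1* showed the clearest difference. Its signal was 3682, 4032, 3346 and 1838 in untreated microglia of experiments 12, 13, 14 and 16. After Th1 supernatant it was 80.6, 102, 116 and 131, above background on all 4 arrays. After Th17 supernatant it was 3996, 2097, 2698 and 1725, within the range of the untreated arrays but for the lowest value. *S1pr1* fell by 4.87 ± 0.30 on the log2 scale (95% interval -5.51 to -4.22, adjusted p = 3.09e-07), a 29.2-fold difference and the fall of rank 25 among the 19801 genes. Within experiments 12, 13, 14 and 16 the fold was 45.7, 39.4, 28.7 and 14.0, and within slides 1, 2 and 3 the log2 difference was -5.58, -4.94 and -3.81. It was -4.56 ± 0.30 against Th17 supernatant (adjusted p = 6.19e-07). With normexp the log2 difference from untreated cells was -3.62, and the gene was called.

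*S1pr1* is a well known transcript of endothelial cells and astrocytes. Of 8 endothelial markers, 5 to 6 were above background on both untreated and Th1 arrays, and *Tie1* and *Tek* were above it on none. Their summed signal was 14678 to 19011 on untreated, 20081 to 28223 on Th1 and 12204 to 14518 on Th17 arrays, with *Vwf* 3.79 ± 0.54 higher on the log2 scale after Th1 supernatant. The sum consists mostly of *Kdr*, *Flt1* and *Vwf*. Of the 5 endothelial markers kept, *Vwf* alone was called. *Cdh5*, *Flt1* and *Pecam1* had log2 differences of 0.99 ± 0.40, 0.94 ± 0.45 and 0.60 ± 0.12, and *Kdr* had one of -0.33 ± 0.19. The median of the 5 was 0.938. The summed astrocyte signal, given beside *Lpar1*, was lower on the Th1 than on the untreated array within each of the 4 experiments. Its markers did not move together. Of the 7 kept, *Fabp7* (-2.24 ± 0.35) was called and the other 6 were not. *Aldoc* differed by -1.72 ± 0.54, *Aldh1l1* by 0.98 ± 0.36 and *Gfap* by 1.02 ± 0.83, and the median of the 7 was 0.153. The part of these cells in the *S1pr1* result was not tested. *S1pr2* had a signal of 8478 to 11124 in untreated, 7373 to 8569 in Th1 and 8069 to 10361 in Th17 arrays, with overlapping groups. Its log2 difference was -0.31 ± 0.12 (95% interval -0.57 to -0.06, adjusted p = 0.0484) and it was not called. When arrays were only scaled, without quantile normalisation, the difference was -0.11 (limma, adjusted p = 0.476).

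**Figure D2:**
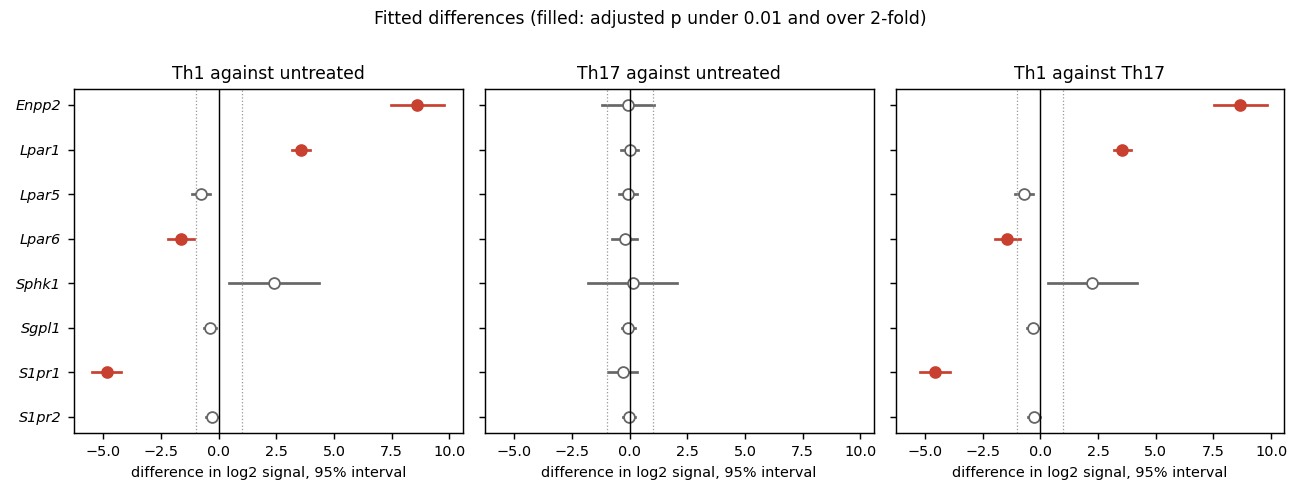
Fitted difference in log2 signal of the 8 genes in the 3 comparisons, with 95% intervals from limma (n = 4 arrays per group). Filled points were called and dotted lines mark 2-fold. *Enpp2* (8.61), *Lpar1* (3.56, a value set by the floor), *Lpar6* (-1.65) and *S1pr1* (-4.87) were called for Th1 against untreated, and no gene was called for Th17 against untreated.

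The enzymes that make and remove S1P were not called in the fit without a block. *Sphk1*, the kinase, had a signal of 242, 63.6, 187 and 681 in the untreated arrays of experiments 12, 13, 14 and 16 by its brighter probe. After Th1 supernatant it was 786, 409, 2164 and 2134. After Th17 supernatant it was 232, 63.1, 210 and 940.0. The level differed widely between experiments in every treatment, so that the groups overlapped, and yet the Th1 array was the highest of its experiment in all 4. The log2 difference from untreated cells was 2.39 ± 0.88 (95% interval 0.45 to 4.33, adjusted p = 0.0459). The Th1 value was 3.25, 6.43, 11.6 and 3.13 times that of the untreated array within experiments 12, 13, 14 and 16. With experiment as a block, the same difference had an SE of 0.33 and an adjusted p of 0.000417, and *Sphk1* was called. In that fit 7.88% of all genes rose. Against Th17 supernatant the log2 difference was 2.25 ± 0.88 (adjusted p = 0.0588). It was called with the block (adjusted p = 0.000605), in a fit in which 7.27% of all genes rose. Without untreated 13 the difference from untreated cells was 1.82 and without untreated 16 it was 2.96, and neither was called.

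The dimmer *Sphk1* probe was also highest on the Th1 array of each experiment. Its log2 difference was 1.85 ± 0.72 for Th1 against untreated (adjusted p = 0.0553 over all 24286 probes) and 1.92 ± 0.72 for Th1 against Th17 (adjusted p = 0.0496). *Sgpl1*, the lyase, had a signal of 55332 to 67490 in untreated, 39002 to 53921 in Th1 and 49027 to 63638 in Th17 arrays. The Th1 and untreated values did not overlap after quantile normalisation, although the signals before it did. The log2 difference was -0.38 ± 0.13 (95% interval -0.65 to -0.10, adjusted p = 0.03), which is 1.30-fold, and *Sgpl1* was not called. When arrays were only scaled, without quantile normalisation, it was -0.12 (limma, adjusted p = 0.454).

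**Figure D3:**
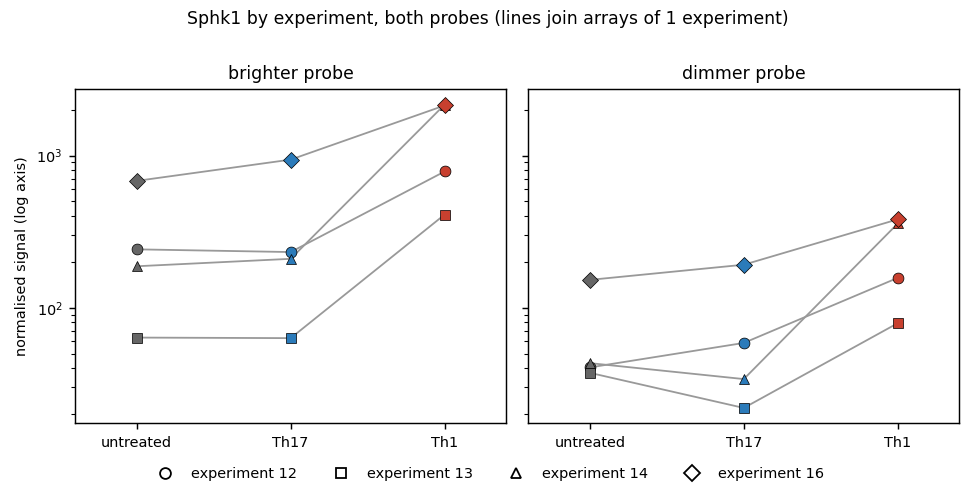
Normalised signal (log axis) of the brighter and the dimmer *Sphk1* probe by treatment. Each point is 1 array and lines join the arrays of 1 experiment, whose shape is given in the key. The Th1 array is the highest of its experiment for both probes in all 4 experiments, while the level differs between experiments within each treatment (63.6 to 681 in untreated cells by the brighter probe).

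Th17 supernatant left each of the 8 genes without a call. The log2 differences from untreated cells ran from -0.31 ± 0.30 (*S1pr1*) to 0.14 ± 0.88 (*Sphk1*), each with an adjusted p of 1, and *Lpar1* was not above background in either group. How far a difference is bounded varies between genes. The 95% interval was -0.30 to 0.21 for *S1pr2*, -0.33 to 0.22 for *Sgpl1*, -0.44 to 0.34 for *Lpar5*, -0.77 to 0.34 for *Lpar6* and -0.95 to 0.34 for *S1pr1*. It was as wide as -1.20 to 1.08 for *Enpp2* and -1.80 to 2.08 for *Sphk1*, intervals that include changes of 2-fold in either direction. All of these intervals are from the fit without a block, so they include the spread between experiments. Within experiments 12, 13, 14 and 16 the log2 difference of *Sphk1* was -0.06, -0.01, 0.16 and 0.46 by its brighter probe. By its dimmer probe it was 0.53, -0.77, -0.35 and 0.33, so that each of these was under 2-fold.

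The rest of the pathway was taken from 6 lists with 74 genes, of which 57 were kept. For Th1 against untreated 4 of these rose and 9 fell, where 7.49% of all genes rose and 7.88% fell. For Th1 against Th17 5 rose and 7 fell, where 6.89% and 7.91% of all genes did. For Th17 against untreated 0 were called. These shares are also the background for the counts of each list. No other LPA receptor or enzyme was called. Of the 10 in that list 6 were kept, with a median log2 difference of -0.249 for Th1 against untreated, and *Lpar2*, *Lpar3*, *Pla1a* and *Liph* did not pass the filter. Among the other S1P receptors, enzymes and transporters 10 of 16 were kept and 1 fell, with a median of 0.102. This was *Cerk*, the kinase that phosphorylates ceramide, at -1.27 ± 0.17 (adjusted p = 1e-04). By its next brightest probe the difference was -0.88 and *Cerk* was not called. *Acer3*, a ceramidase that releases sphingosine from ceramide, was called against Th17 supernatant alone, at 1.00 ± 0.19 (adjusted p = 0.00123). That call, at the threshold of 2-fold, was lost without Th1 12 (0.97), Th1 13 (0.95), Th1 14 (0.91), Th17 14 (0.90) or Th17 16 (0.97), with normexp (0.97) and with slide as a block (0.87). Against untreated cells *Acer3* differed by 0.89 ± 0.19 (adjusted p = 0.00246) and was called when arrays were only scaled (1.01), in the value table (1.01) and without Th1 16 (1.08).

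Genes that make ceramide and turn it into sphingomyelin changed in both directions. Of 22 listed, 18 were kept, 2 rose and 4 fell for Th1 against untreated, with a median log2 difference of -0.0958. *Cers6*, a ceramide synthase, had a signal of 286 to 663 in untreated, 2040.1 to 2968 in Th1 and 284 to 398 in Th17 arrays, and rose by 2.56 ± 0.23 (adjusted p = 6.58e-06). *Cers3*, another ceramide synthase, was above background on 4 of 4 Th1 arrays, on 1 Th17 array and on no untreated array. By the limit used for *Lpar1* it was at least 2.47-fold higher than in untreated cells (adjusted p = 3.98e-05), at a signal of 39.8 to 47.9. It was not called with normexp (0.23) or with a floor of 50, settings that gave less than this bound. *Smpd3*, which encodes a neutral sphingomyelinase, was above background on all untreated and Th17 arrays and on no Th1 array. By the same limit it was at least 9.33-fold lower than in untreated cells (adjusted p = 0.000289) and at least 12.1-fold lower than after Th17 supernatant (adjusted p = 0.000161). With a floor of 50 it was not called (adjusted p = 0.0226 and 0.0104). Against untreated cells the log2 difference of *Smpd3* was -2.09 with that floor and -1.27 with normexp, both smaller in size than the bound.

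*Sptssa*, a small subunit of the enzyme that starts sphingolipid synthesis, fell by 1.88 ± 0.14 (adjusted p = 1.5e-06). *Sgms1*, a sphingomyelin synthase, fell by 1.59 ± 0.22 (adjusted p = 0.00014). *Degs1*, the desaturase that completes ceramide, fell by 1.02 ± 0.11 (adjusted p = 2.35e-05) from untreated cells. It was not called when arrays were only scaled (-0.75), in the deposited value table (-0.74), or without Th1 13 (-0.95), untreated 14 (-0.99) or untreated 16 (-0.999). *Degs1* was not called against Th17 supernatant, save without Th17 13 (-1.03).

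Lysophosphatidylserine is a related lipid with its own receptors. All 3 kept genes of this list (of 5) were called, 1 up and 2 down. *Gpr34*, a lysophosphatidylserine receptor that microglia are known to express, had a signal of 2588 to 6808 in untreated and 812 to 1604 in Th1 arrays. It fell by 1.91 ± 0.40 (adjusted p = 0.0023). Against Th17 supernatant its difference of -1.34 was called only with experiment (adjusted p = 0.0039) or slide (0.00139) as a block. *Abhd12*, a lipase that degrades lysophosphatidylserine, fell by 1.83 ± 0.17 (adjusted p = 6.44e-06), and *Abhd16a*, a lipase that makes it, rose by 1.56 ± 0.16 (adjusted p = 1.88e-05).

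Downstream of the receptors 14 of 15 G proteins and effectors were kept and 1 was called. *Gna12*, a G protein alpha subunit, fell by 1.34 ± 0.16 (adjusted p = 5.11e-05). Against Th17 supernatant it fell by 1.11 ± 0.16, a call that was lost with normexp (-0.88). All 6 regulators of the amount of S1pr1 protein at the surface were kept. *Cd69*, whose product binds S1pr1 and draws it from the surface of lymphocytes, rose by 4.42 ± 0.73 (adjusted p = 0.000493). Its signal was 310.0 to 1544 in untreated, 7396 to 18360.4 in Th1 and 197 to 2142 in Th17 arrays, so that the Th1 arrays lay above all others. *Arrb1*, a beta-arrestin, fell by 1.77 ± 0.18 (adjusted p = 1.55e-05). *Klf2*, a transcription factor that drives *S1pr1* in T cells, had a log2 difference of 0.31 ± 0.29 and was not called (adjusted p = 0.413). It was named after its values were seen, because its list was chosen around *S1pr1*. Against Th17 supernatant *Cers6*, *Abhd16a* and *Cd69* were again higher, by 2.75, 1.61 and 4.28, and *Sptssa*, *Sgms1*, *Abhd12*, *Arrb1* and *Cerk* lower, with log2 differences of -1.70, -1.30, -1.55, -1.89 and -1.14. *Cers3* was higher by 1.22. Each of these was called, but *Cerk* was not when arrays were only scaled (-0.82), in the value table (-0.82) or by its next brightest probe (-0.81), and *Cers3* was not with normexp or a floor of 50.

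**Figure D4:**
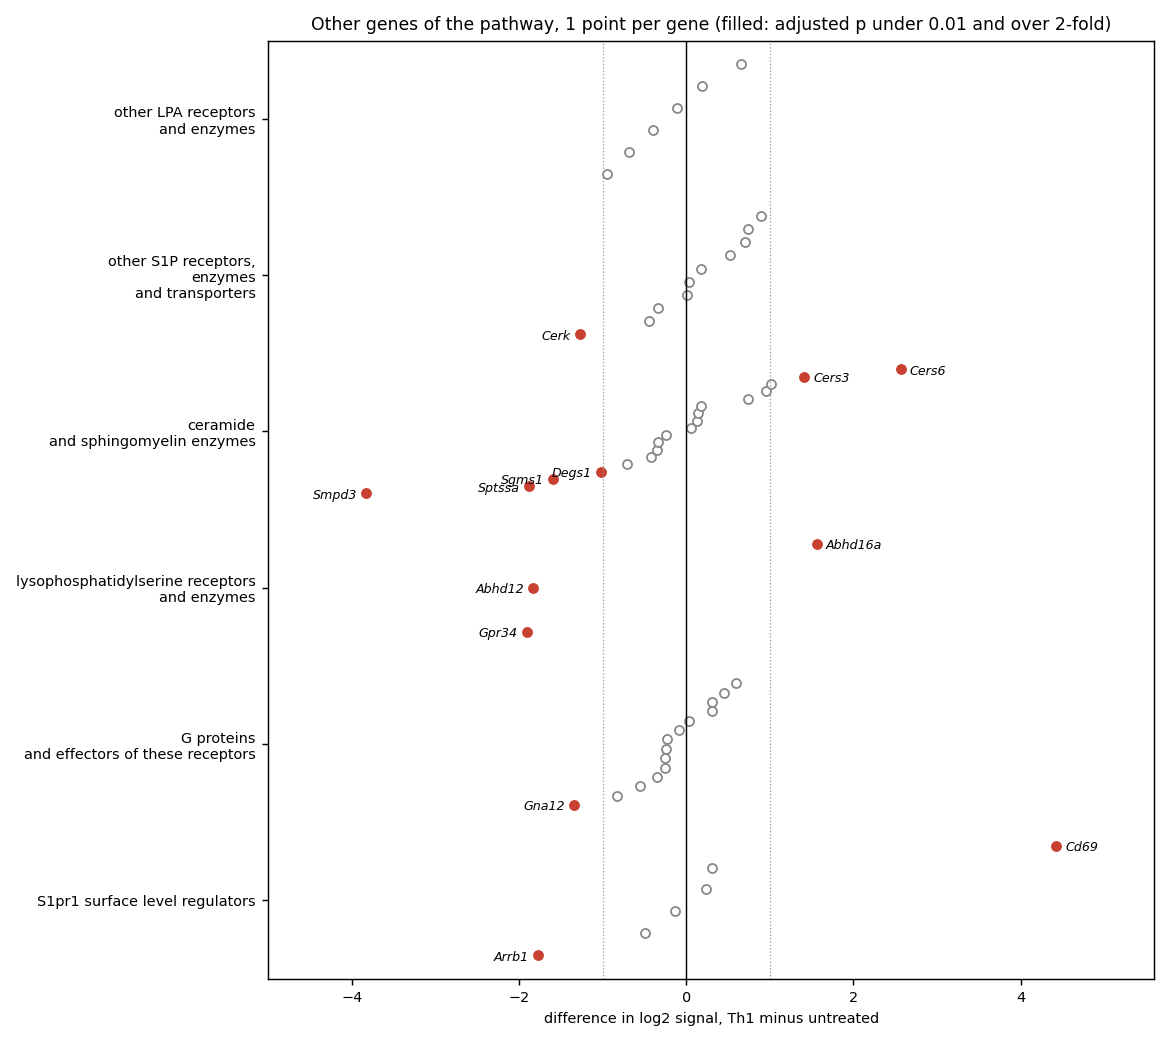
Difference in log2 signal, Th1 minus untreated, of the 57 other pathway genes that were kept, 1 point per gene in 6 lists (n = 4 arrays per group). Filled, named points were called and dotted lines mark 2-fold. The 13 called genes (4 higher, 9 lower) include *Cd69* at 4.42, *Cers6* at 2.56 and *Smpd3* at -3.83, where the fitted values of *Smpd3* and *Cers3* depend on the floor.

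The labelled cell type was checked against its markers. All 11 microglia markers with a named probe were above background on all 12 arrays (*Cd68* had none). Among those not called were *Csf1r*, *Itgam*, *Tyrobp* and *Spi1*. Between untreated and Th1 cells *Cx3cr1*, *Trem2* and *Tmem119* fell, with log2 differences of -6.31, -2.50 and -2.29, and *P2ry12*, *Aif1* and *Ptprc* rose by 1.61, 1.18 and 1.04. Of 7 T cell markers with a named probe, *Cd2*, *Cd3d* and *Cd3g* were above background on no array, and *Cd4*, *Cd3e*, *Lck* and *Cd5* were above it on all 12. The summed signal of the 7 was 6987 to 8124 on untreated, 7441 to 8607 on Th1 and 5911 to 8367 on Th17 arrays. From untreated to Th1 cells *Lck* rose by 2.35 ± 0.25 and *Cd5* fell by 1.31 ± 0.15 on the log2 scale, and *Cd4* and *Cd3e* were not called. Each array had 21486 to 25623 probes well above its background, and the 75th percentile of signal before scaling was 1200 to 2214.

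Genes with a pattern most like that of each of the 8 were found by Pearson correlation of log2 signal over the 12 arrays, among 13906 genes with a symbol. These correlations are descriptions, since the 12 arrays share experiments and treatments and 4 Th1 arrays set apart from 8 others are enough for a high value. *Enpp2* was followed most closely by *Inpp5b* (r = 0.996), *Vmn1r65* (0.995) and *Snx20* (0.993), and *Lpar1*, with 8 values at the floor, by *Majin* (0.997), *4933409K07Rik* (0.996) and *Treml2* (0.996). For *S1pr1* they were *Krt80* (0.996), *Slco2b1* (0.994) and *Plxnc1* (0.993), and for *Lpar6* they were *Rida* (0.99), *Cask* (0.986) and *Ulk2* (0.985). The genes nearest to *Sphk1* were *Lrrc75a* (0.973), *Rgcc* (0.961) and *S100a11* (0.943). Those nearest to *Lpar5* were *Nuak1* (0.971), *Ckb* (0.968) and *Crot* (0.951). For *Sgpl1* they were *Mafg* (0.973), *Arl15* (0.967) and *Spin1* (0.964), and for *S1pr2* they were *Arr3* (0.959), *Arhgap19* (0.936) and *Acad8* (0.932).

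Promoter sequence was available from RefSeq (build GRCm38.p6) for 6 of the 8 genes, as 13 windows of 300 bases (250 before and 50 after a transcript start). For *Enpp2* and *S1pr1* no window was at hand. Motifs of interferon signalling were searched on both strands, the GAS element TTCNNNGAA, bound by STAT dimers, and the ISRE core GAAANNGAAA, bound by interferon regulatory factors. The GAS letters read the same on both strands, and matches of the motifs may overlap. The GAS letters occurred in 2 windows, both of *Sphk1*, and these windows overlap and share a single match. It starts 41 bases before one transcript start and 115 bases before the other. The ISRE core occurred in 0 of the 13. Among all 32851 windows 8.3% held the GAS letters and 3.44% the ISRE core. A match is a description of the letters and not a binding site, and the absence of one says only that the letters are not in the window. The *Sphk1* match is shown with its flanks, GAS letters in capitals, at chr11:116531786-116531815 on the plus strand. The 250 bases upstream of a start are shown for the called receptors with a window, *Lpar1* at chr4:58553492-58553741 on the minus strand (1 of 3 windows) and *Lpar6* at chr14:73237641-73237890 on the plus strand, both without either motif and hence in lower case throughout.
Sphk1: ctgagtcaccTTCTCGGAAggcactcgggg
Lpar1: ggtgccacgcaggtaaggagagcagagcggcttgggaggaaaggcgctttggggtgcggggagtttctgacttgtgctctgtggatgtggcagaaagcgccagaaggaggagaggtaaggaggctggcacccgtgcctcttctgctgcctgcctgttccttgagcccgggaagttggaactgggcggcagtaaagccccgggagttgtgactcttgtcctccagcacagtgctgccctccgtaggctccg
Lpar6: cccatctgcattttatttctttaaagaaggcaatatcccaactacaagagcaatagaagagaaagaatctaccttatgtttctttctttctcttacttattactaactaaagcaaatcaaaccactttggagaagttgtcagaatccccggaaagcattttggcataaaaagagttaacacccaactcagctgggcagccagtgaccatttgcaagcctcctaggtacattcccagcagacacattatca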

How the data were processed

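Cy3-labelled RNA of 12 samples was measured on Agilent mouse arrays of a single colour, 4 arrays per slide. The 8 genes and all lists were chosen with earlier results of these data known. Groups were taken from the sample labels, and experiment numbers from the titles.

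The scans were read by the authors in Feature Extraction 10.7.3.1 (Agilent), per the file headers. The deposited processed signal is an intensity with background subtracted and spatial trends removed, not scaled between arrays. A deposited value table holds log2 values whose scale and centring are not stated. When processed signal was divided by the 75th percentile of its array, log2 transformed and centred on the median of each probe, its Pearson correlation with the table over 19912 probes was at least 0.999993 on each array, in the same direction. Its column medians ran from -0.226 to 0.18, and it served as an alternative only.

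Control spots and flagged spots (103 to 230 per array) were left out, and none was saturated. Spots of a probe were averaged by the geometric mean. Signals were quantile normalised and multiplied so that the 75th percentile became 1500, values under 15 were raised to 15, and log2 was taken. The study's further rules on repeated spots were not applied, since 39030 of 39429 probes were printed once. Probes well above background on at least 4 of 12 arrays were kept (24286 probes). RefSeq accessions named 27234 probes (69.07%), with the assembly GRCm38.p6 used for names and promoter windows, while the file headers name another build. Of several kept probes, the one with the highest mean signal stood for a gene (19801 genes, 70.46% with a symbol).

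The test was limma 3.58.1 (R 4.3.3; lmFit, eBayes) with 1 mean per group over 12 arrays, and it was checked on simulated data. All 8 genes, called pathway genes and the 3 nearest genes by correlation are named. Where no array of a group measured a gene above background, the fold is a lower bound under a limit set per array. It divides the mean of the other group by the mean of that limit, the lowest signal well above background or the signal of the probe itself if higher. On untreated 12 and untreated 14 the lowest such signal was 15, the floor itself. Other treatments of background can give a smaller fold. Experiment numbers pair the samples, as the series describes 4 independent experiments. Deviations from group means correlated at 0.244 to 0.634 between arrays of the same number, so the fit with experiment as a block is given where it changed a call. Slides held over 1 treatment each, and within-slide values are given. Alternatives were scaling without quantiles, normexp on median spot and background signals, the value table, the floor, the filter, the block, the slide, the arrays fitted, the next brightest probe and leaving out each array. The number of arrays limits precision.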

Additional observations from a re-analysis of the deposited data

Results flagged for a closer look

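The dimmer *Sphk1* probe gave a signal of 152 on untreated 16, far above the other untreated arrays at 37.3 to 43.2. On the log2 scale the gap to the next array took up 0.896 of the range of the group. Of 27 sets of 4 arrays looked at (9 probes in 3 groups) this was the only one so set apart, and chance alone sets apart about 1 in 20 such sets. The brighter *Sphk1* probe was also highest on untreated 16, at 681. Experiment 16 was the highest of its group for the dimmer probe on Th17 (192) and Th1 (381) arrays too. For the brighter probe it was the highest on Th17 arrays (940.0) but not on Th1 arrays. The sets of *Lpar1* in untreated and Th17 arrays lay wholly at the floor and could not be set apart.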

How the results depend on the processing

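The 4 members called for Th1 against untreated, and the 4 against Th17, numbered 4 under every alternative but the fit with experiment as a replicate block, in which *Sphk1* made 5 in both. Leaving out each array in turn gave 4 to 4. For Th17 against untreated 0 were called under any alternative. The other pathway genes called numbered 13, 0 and 12 for Th1 against untreated, Th17 against untreated and Th1 against Th17, with 12 to 14, 0 to 0 and 11 to 13 on leaving out arrays. With the replicate block the pathway counts were 13, 0 and 13, and *Gpr34* against Th17 was the only other call of a named gene that the block changed. No difference that changed sign was called, and all such were of Th17 against untreated. *S1pr2* was at 0.0048 with normexp and 0.026 with slide as a block, *Lpar5* at 0.024 with slide as a block, and *Sphk1* at -0.30 with slide as a block and -0.062 by its dimmer probe. Leaving out arrays gave -0.43 to 0.38 for *Enpp2*, -0.193 to 0.0457 for *Lpar5*, -0.106 to 0.0324 for *S1pr2*, -0.53 to 0.76 for *Sphk1* and -0.110 to 0.0159 for *Sgpl1*. The cause of these shifts was not tested. Over all genes normexp called 1046 rises and 955 falls for Th1 against untreated (1484 and 1560 without it), and 968 and 954 for Th1 against Th17 (1365 and 1566). Signals near background limit the folds of *Enpp2*, *Lpar1*, *Cers3* and *Smpd3*.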
